A study of Mus musculus with 4 samples.

Results

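Egr1, Egr2, Egr3, Nr4a1, Nr4a2, Nr4a3, Npas4 and Srf, 8 stimulus-induced transcription factor genes, were measured by RNA-seq in 4 libraries of sorted mouse bone marrow hematopoietic stem cells (HSCs). They were taken by gene symbol through their Ensembl identifiers, 8 of the 37140 genes listed in all 4 count tables and of the 42367 listed in any. They were selected on their levels in the 4 libraries and their KO/WT ratios, so those values are given as a description and were not tested. The comparison asks how the expression of these genes differed between Gfi1b-deficient (KO) and Gfi1b WT HSCs, Gfi1b being a zinc finger protein that recruits histone-modifying enzymes to silence its target genes.

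HSCs were sorted as Lin- cKit+ Sca1+ CD48- CD150+ cells of C57Bl6 mice. A second population was sorted as HSCs low for the surface proteins CD41 and CD9 (CD41low/CD9low HSCs). The study's results text calls the former CD41+/CD9+ HSCs, whereas its methods list neither protein among their markers. According to the study, the CD41low/CD9low definition was meant to keep out megakaryocyte precursors that might contaminate the HSCs. Marrow of several mice of a genotype was pooled before the sort, and 1 library represents each genotype and population. No difference below therefore has a replicate check, and the 95% intervals (exact, Clopper-Pearson) cover counting error only. KO mice were Rosa-Cre Gfi1b fl/fl animals given tamoxifen. Cre from the ubiquitous Rosa26 locus can delete floxed Gfi1b exons in other cells too and not only in HSCs. The study's methods call the tamoxifen doses suboptimal, and how complete the deletion was cannot be told from these counts. Control mice were Rosa-Cre Gfi1b wt/fl and also had tamoxifen according to the study's methods, whereas the design text of the series describes them as floxed mice without Cre. As the methods have it, WT mice still carried 1 floxed allele and shared Cre and tamoxifen with KO mice, and as the design text has it they did not share Cre. Ages are not given in the sources used here. The sample titles name Gfi1 where the genotype field names Gfi1b.

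Gene counts totalled 50781007 and 41690708 for WT and KO HSCs, and 12732079 and 19123185 for the CD41low/CD9low libraries of WT and KO. Gfi1b had 182.3 and 1197 CPM (counts scaled to a common library total) in HSCs labelled WT and KO, and 48 and 509.4 CPM in CD41low/CD9low HSCs. Gfi1 had 11.2 and 105.4 CPM, and 32.4 and 138.2 CPM, in the same order. Both were thus higher in the libraries labelled KO, and counts over a whole gene do not tell whether some of its exons were deleted, so they do not check the labels, and WT and KO below are the labels' names. The study assayed the floxed exons themselves, which these tables do not resolve. Itgb3, an integrin gene of megakaryocytes (MKs), had ratios of KO to WT of 3.32 in HSCs and 2.74 in CD41low/CD9low HSCs. Of the MK markers with at least 10 counts in a library of the pair, 7 of 9 were above 1 in HSCs and 5 of 8 in CD41low/CD9low HSCs. The lowest ratios were 0.889 and 0.61. All 10 HSC markers listed, among them Kit, Procr, Mecom and Hlf, were above 3 counts in every library, with summed levels of 2315 to 2924 CPM. Kit alone was at 989.2 to 1262 CPM, and single markers differed between libraries. In WT and KO HSCs, Procr was at 45.7 and 99 CPM and Slamf1, the gene of CD150, at 82.7 and 106.2 CPM. In the WT and KO CD41low/CD9low libraries, Procr was at 164.9 and 251.0 CPM and Slamf1 at 30.9 and 61.1 CPM. Itga2b, the gene of CD41, was at 546.6 and 690.6 CPM in WT and KO HSCs and at 136.4 and 204.9 CPM in the WT and KO CD41low/CD9low libraries, and CD41 was part of the gate. Summed levels ranged from 18 to 30.8 CPM for 6 B cell markers and from 7.65 to 14.4 CPM for 7 T and NK cell markers, and Cd79a, Ms4a1, Pax5, Ebf1, Cd3d, Cd3e, Cd3g and Cd8a were at 0 in both CD41low/CD9low HSC libraries. Of the same lists, Cd79b was at 20.7 and 17.2 CPM in WT and KO HSCs, against 30.8 and 28 CPM in the CD41low/CD9low population. Cd4 was at 0.945 and 0.504 CPM, against 7.46 and 2.09 CPM.

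Egr, Nr4a and Npas4 genes are immediate-early genes, which are transcribed within minutes of a stimulus without new protein synthesis. Serum response factor (SRF) binds CArG boxes at several immediate-early genes and at its own gene, together with Elk proteins that are phosphorylated by MAP kinases or with actin-regulated Mrtf proteins, and CREB acts through the cAMP response element (CRE). In HSCs, Egr1 is known to restrain division and exit from the bone marrow niche, and Nr4a1 and Nr4a3 are known to restrain proliferation and myeloid leukemia.

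Promoter sequences were looked up in RefSeq's windows for mouse GRCm38.p6, which hold 250 bases upstream of a transcript start. They matched 6 of the 8 genes with 10 windows, of which Egr2 had 5. Windows for Egr1 and Egr3 are not among them. The motifs searched, on both strands, were the CArG box (a run of A and T between CC and GG), the CRE half-site TGACG, the full CRE TGACGTCA, the Egr site GCGNGGGCG and the Nr4a site AAAGGTCA. The half-site is also counted inside a full CRE, and no match overlapped another in the windows of these genes. The sequences of Srf and Egr2 are shown because they hold CArG boxes, and those of the 3 Nr4a genes because the window of each holds 4 CRE half-sites, of which 1 of Nr4a3 lies in an exon and is not printed. Capitals mark CArG boxes and CRE half-sites, and bases that lie in annotated exons are left out.

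The Srf sequence is chr17:46556176-46556412 (GRCm38, minus strand, upstream of the gene).
Srf: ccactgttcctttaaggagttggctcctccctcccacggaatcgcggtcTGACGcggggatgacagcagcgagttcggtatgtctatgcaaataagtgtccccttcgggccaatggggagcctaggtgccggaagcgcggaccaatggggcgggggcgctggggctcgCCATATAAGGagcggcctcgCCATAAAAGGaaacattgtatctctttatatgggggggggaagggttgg
The Egr2 sequence is chr10:67537619-67537868 (GRCm38, plus strand, upstream of start number 3 of its 5 RefSeq starts and intronic to longer transcripts).
Egr2: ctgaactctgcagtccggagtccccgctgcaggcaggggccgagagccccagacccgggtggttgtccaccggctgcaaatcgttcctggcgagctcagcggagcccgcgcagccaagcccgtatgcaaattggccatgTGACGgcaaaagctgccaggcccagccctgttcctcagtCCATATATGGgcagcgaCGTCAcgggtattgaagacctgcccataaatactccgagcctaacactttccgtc
The Nr4a1 sequence is chr15:101266596-101266845 (GRCm38, plus strand, intronic to longer transcripts).
Nr4a1: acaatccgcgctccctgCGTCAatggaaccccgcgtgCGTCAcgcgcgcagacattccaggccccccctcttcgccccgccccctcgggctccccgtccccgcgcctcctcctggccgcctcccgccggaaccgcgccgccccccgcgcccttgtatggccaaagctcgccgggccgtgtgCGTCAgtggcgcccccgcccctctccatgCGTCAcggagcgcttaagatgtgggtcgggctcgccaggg
The Nr4a2 sequence is chr2:57124004-57124253 (GRCm38, minus strand, upstream of the gene).
Nr4a2: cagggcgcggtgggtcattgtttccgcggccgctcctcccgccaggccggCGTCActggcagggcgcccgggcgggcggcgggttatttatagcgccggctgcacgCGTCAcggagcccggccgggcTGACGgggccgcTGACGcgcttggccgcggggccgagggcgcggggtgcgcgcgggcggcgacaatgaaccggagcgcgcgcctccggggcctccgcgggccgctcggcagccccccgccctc
The Nr4a3 sequence is chr4:48045055-48045152 (GRCm38, plus strand), the part of its window upstream of the annotated gene.
Nr4a3: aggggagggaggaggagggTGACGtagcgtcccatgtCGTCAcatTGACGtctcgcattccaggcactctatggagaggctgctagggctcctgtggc

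Srf had 2 CArG boxes, CCATATAAGG 82 bases and CCATAAAAGG 62 bases upstream of its start. The printed Egr2 window had 1, CCATATATGG, 72 bases upstream of start number 3. The windows of starts 4 and 5 of Egr2 held CCATATATGG as well, that of start 2 held CCTTTTTTGG, 72 bases upstream, and that of start 1 held none. A CArG box was present in 2 of the 6 genes and in 1.63% of all 26994 genes with a window, and 2 or more, as in Srf, in 0.0183% of all 32817 windows. The CRE half-site was found in a window of 6 of 6 genes, against 19.8% of all genes. It was in 8 of their 10 windows, against 17.7% of all windows. Among these, the windows of starts 3, 4 and 5 of Egr2 overlap and hold the same 2 half-sites and the same CArG box. The 4 half-sites of Nr4a1, Nr4a2 and Nr4a3 are a number reached by 0.137% of windows. Npas4 had 2 half-sites, 179 and 169 bases upstream of its start. An Egr site was found in Nr4a1, Nr4a2 and Srf and in 5.33% of all genes, while the full CRE (1.77% of genes) and the Nr4a site (1.55%) were not in the windows of these genes. These matches describe the sequence and do not show binding.

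**Figure D1:**
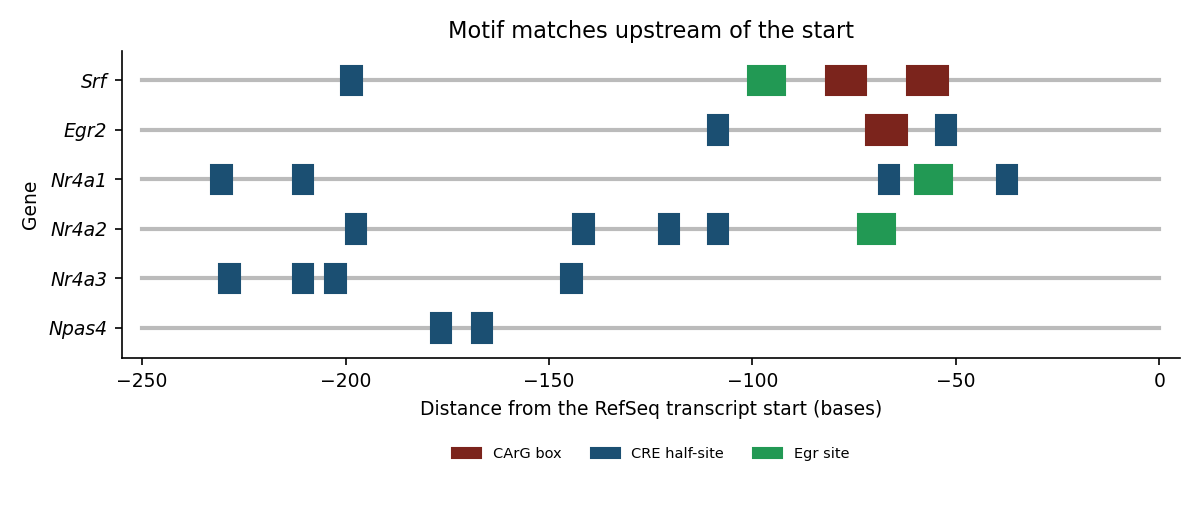
Motif matches in the windows of 6 genes, with the distance from the RefSeq transcript start in bases on the x axis and 1 line per gene (Egr2 from its start number 3). Boxes mark CArG boxes (red), CRE half-sites (blue) and Egr sites (green); CArG boxes lie between 53 and 82 bases upstream of the start in Srf and Egr2, and the Nr4a genes hold 4 half-sites each.

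Egr1 encodes a zinc finger transcription factor and is also a target of canonical Wnt signaling. It lies on chromosome 18 (34859823 to 34864984, GRCm38, plus strand). Egr1 had 10568 counts in WT and 2712 in KO HSCs, which are 208.1 (95% interval 204.2 to 212.1) and 65.1 (62.6 to 67.5) CPM. It had 119 and 221 counts in the WT and KO CD41low/CD9low libraries, or 9.35 (7.74 to 11.2) and 11.6 (10.1 to 13.2) CPM. WT HSCs were highest, KO HSCs were second, and the CD41low/CD9low HSC libraries were low with overlapping intervals. The KO/WT ratio of normalized counts was 0.317 (0.304 to 0.33) in HSCs, a log2 ratio of -1.66, and 3.68% of the genes that passed the filter had a lower one. The ratio was 1.24 (0.986 to 1.56) in CD41low/CD9low HSCs, an interval that includes 1. By its count Egr1 ranked 921 among the 17802 genes counted in WT HSCs and 4051 among the 18901 counted in KO HSCs.

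Egr2 (chromosome 10, 67535475 to 67542188) and Egr3 (chromosome 14, 70077203 to 70082614) encode relatives of Egr1 that bind the same DNA site. Both were far below Egr1. Egr2 had 113 counts in WT and 22 in KO HSCs (2.23 and 0.528 CPM), and 0 and 6 counts in the WT and KO CD41low/CD9low libraries. Egr3 had 160 and 34 counts in WT and KO HSCs (3.15 and 0.816 CPM) and 0 counts in both CD41low/CD9low HSC libraries. At their depths, 3 counts, taken as the limit for a count of 0, are 0.236 CPM in WT and 0.157 CPM in KO. Genes at 0 were thus not detectable there, and the 6 counts of Egr2 in KO (0.314 CPM, 0.115 to 0.683) do not set KO apart from WT. In HSCs the KO/WT ratios were 0.24 (0.145 to 0.382) for Egr2 and 0.262 (0.176 to 0.382) for Egr3. Both intervals include the ratio of Egr1.

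Nr4a1, Nr4a2 and Nr4a3 encode orphan nuclear receptors that are active as soon as they are made. Nr4a1 (chromosome 15, 101254269 to 101274795) had 8970 counts in WT and 1337 in KO HSCs, or 176.6 and 32.1 CPM. It had 107 and 57 counts in the WT and KO CD41low/CD9low libraries, or 8.4 (6.89 to 10.2) and 2.98 (2.26 to 3.86) CPM. KO was below WT in both populations, with no overlap of the counting intervals. The KO/WT ratio was 0.184 (0.174 to 0.195) in HSCs and 0.355 (0.253 to 0.494) in the CD41low/CD9low population. In HSCs, 1.86% of the genes that passed the filter had a lower ratio. Nr4a1 was the only one of the 8 genes with a ratio below 0.6 in both populations.

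Nr4a2 (chromosome 2, 57106830 to 57124003, minus strand) had 4080 counts in WT and 768 in KO HSCs, or 80.3 and 18.4 CPM. The CD41low/CD9low libraries gave 16 counts in WT and 71 in KO, or 1.26 and 3.71 CPM. The ratio was 0.232 (0.215 to 0.251) in HSCs and 2.96 (1.7 to 5.45) in the CD41low/CD9low population, so that KO was the lower library in the first population and the higher in the second. The second ratio rests on few reads. With 1 library per genotype and population, whether the KO/WT ratio differed between populations was not tested. Nr4a3 (chromosome 4, 48045153 to 48086447) was low throughout, with 129, 29, 11 and 17 counts in WT HSCs, KO HSCs, WT CD41low/CD9low HSCs and KO CD41low/CD9low HSCs, or 2.54, 0.696, 0.864 and 0.889 CPM. WT HSCs were above the other 3 libraries, whose counting intervals overlap. Its ratio was 0.277 (0.179 to 0.418) in HSCs and 1.03 (0.455 to 2.43) in the CD41low/CD9low population.

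Npas4 (chromosome 19, 4984355 to 4990316, minus strand), best known as an activity-induced factor of neurons, had 42 counts in WT HSCs, or 0.827 CPM, and 0 counts in the other 3 libraries. It was 11.3-fold lower in KO HSCs when 3 counts are taken as the limit for a count of 0. The counting interval of its KO/WT ratio reached 0.113.

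Srf (chromosome 17, 46548329 to 46556175, minus strand), which encodes the factor that binds the CArG box, stood apart from the other genes. It had 3306 and 2060 counts in WT and KO HSCs (65.1 and 49.4 CPM) and 785 and 1348 in the WT and KO CD41low/CD9low libraries (61.7 and 70.5 CPM). All 4 levels lay within 49.4 to 70.5 CPM, with KO lowest in HSCs and highest in CD41low/CD9low HSCs. The KO/WT ratio was 0.769 (0.728 to 0.813) in HSCs, where 19.4% of genes had a lower one, and 1.14 (1.05 to 1.25) in CD41low/CD9low HSCs. Neither ratio passed 1.5 or 0.6. The annotation places 2 genes over Srf, the long noncoding RNA gene Gm26904 on the opposite strand and Mir6976 on the same strand, and the strand setting of the counting is not given in the sources used here, so reads of Srf and of Gm26904 may not have been told apart. The other 7 genes overlap no annotated gene.

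**Figure D2:**
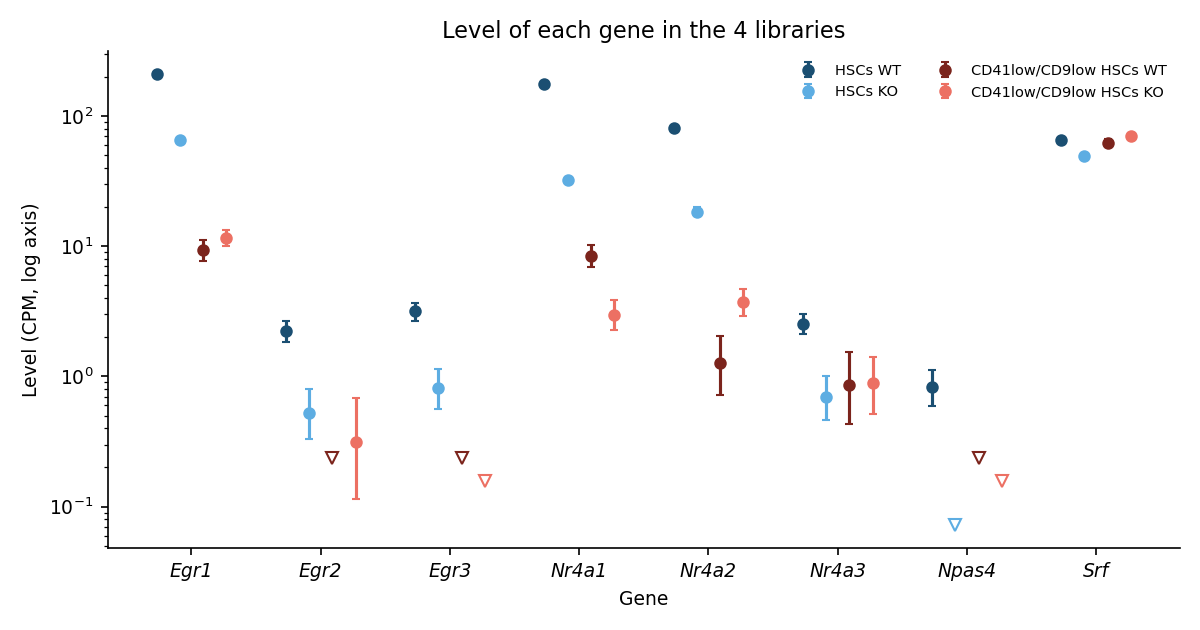
Level of each gene in CPM (log axis) in the 4 libraries, with points for the values, bars for the 95% counting interval and open triangles for the level of 3 counts where a gene had 0 counts. WT HSCs (dark blue) are highest for every gene but Srf, whose 4 libraries lie between 49.4 and 70.5 CPM.

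Counted together, the 8 genes had 538.9 CPM in WT HSCs and 167.0 in KO HSCs, and 81.5 and 89.9 CPM in the WT and KO CD41low/CD9low libraries. In WT HSCs 7 of them were above 1 CPM, and in each of the other libraries 4. In HSCs, 7 of the 8 genes had a KO/WT ratio below 0.6 and Srf did not, and 10.3% of the 15910 genes with at least 10 counts in a library of the pair were below 0.6 and 14.1% above 1.5. The cutoffs of 1.5 and 0.6 are those of the study. The median log2 ratio of the 8 genes was -1.99, with Npas4 set at its limit, against 0.00 over all genes. Since this contrast chose the genes, nothing is read from the count. The filter kept 5 of the 8 genes in CD41low/CD9low HSCs. Nr4a2 was above 1.5 and Nr4a1 below 0.6, beside 13.5% and 12.0% of the 14844 genes, and the median log2 ratio of the 5 genes was 0.20, against 0.01 over all genes.

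**Figure D3:**
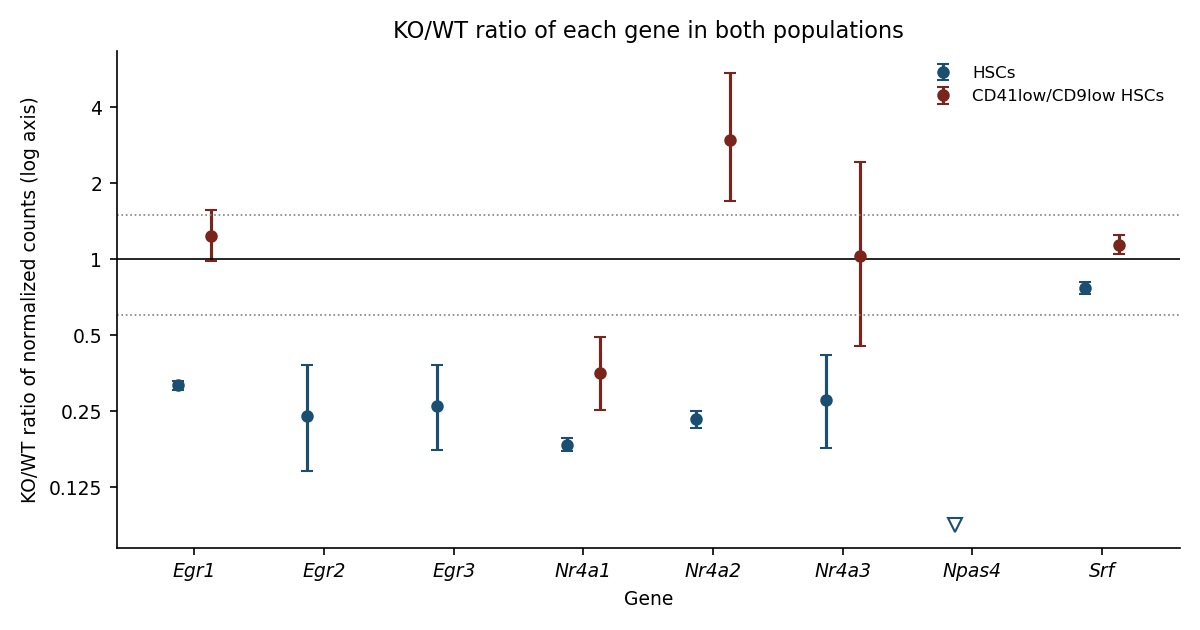
KO/WT ratio of normalized counts (log axis) of each gene in HSCs (blue) and CD41low/CD9low HSCs (red), with 95% counting intervals, a solid line at 1 and dotted lines at 1.5 and 0.6. The triangle sets Npas4, which had 0 counts in KO HSCs, at a limit of 3 counts and is not the end of its counting interval. Genes under 10 counts in both libraries of a pair are not drawn. In HSCs 7 of 8 genes lie below 0.6, in CD41low/CD9low HSCs only Nr4a1 does.

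Other values moved with the genotype in HSCs. The summed level of 9 MK markers was 1533 CPM in WT and 2276 CPM in KO HSCs, with 7 of 9 above a ratio of 1 and none at 0. The 8 dissociation and heat-shock genes summed to 1950 and 1661 CPM, with 4 above and 4 below 1. For every 100 gene counts, 80.0 reads in WT HSCs and 105.3 in those of KO fell outside annotated features. Between the WT and KO CD41low/CD9low libraries, 9 erythroid markers went from 151.8 to 19.2 CPM and 11 neutrophil and monocyte markers from 1447 to 546.8 CPM, against 43.9 to 48.8 and 687.8 to 737.1 CPM between WT and KO HSCs. Their part in the levels of the 8 genes was not tested. In sorted bulk samples, fewer cells that contain a transcript and less of it per cell cannot be told apart.

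Levels were compared between genes per kilobase of exon (FPKM, over the summed exon length of 2893 to 5987 bases). In WT HSCs Nr4a1 was highest at 50.3 FPKM, followed by Egr1 at 46.4, Srf at 22.5 and Nr4a2 at 19.8 FPKM. A second tier lay below 1 FPKM, with Egr3 at 0.715, Egr2 at 0.655, Nr4a3 at 0.424 and Npas4 at 0.2 FPKM. Of these neighbours, Egr3 and Egr2 had overlapping counting intervals. The order changed in KO HSCs, where Srf was highest at 17.1 FPKM, ahead of Egr1 at 14.5, Nr4a1 at 9.14 and Nr4a2 at 4.54 FPKM, and where the counting intervals of Egr3 and Egr2 (0.185 and 0.155 FPKM) and of Egr2 and Nr4a3 (0.116 FPKM) overlapped. Srf was highest by a wide margin in CD41low/CD9low HSCs, at 21.3 FPKM in WT and 24.4 FPKM in KO. In WT it was followed by Nr4a1 (2.39 FPKM) and Egr1 (2.08 FPKM), whose intervals overlap, and in KO by Egr1 (2.58 FPKM) and then Nr4a2 and Nr4a1 (0.915 and 0.849 FPKM), whose intervals overlap.

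The levels also differed between the populations of the same genotype. Among WT libraries, Egr1 was 23.7-fold lower in CD41low/CD9low HSCs than in HSCs, with a ratio of 0.0423 (0.035 to 0.0506). Nr4a1 was 22.3-fold lower (0.0448, 0.0367 to 0.0542) and Nr4a2 67.9-fold lower (0.0147, 0.00841 to 0.0239), while Nr4a3 was 3.12-fold lower (0.32, 0.156 to 0.592). With 3 counts as the limit, the 3 genes at 0 in WT CD41low/CD9low HSCs were 10-fold (Egr2), 14.2-fold (Egr3) and 3.73-fold (Npas4) lower. Their counting intervals reached ratios of 0.125, 0.0876 and 0.345. Srf had a ratio of 0.891 (0.824 to 0.964). Thus 7 of the 8 genes were below 0.6, as were 20.2% of 15636 genes, and 0 above 1.5, as were 18.6%, and the median log2 ratio was -3.58 with these limits, against -0.08 over all genes.

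Among KO libraries Egr1, Nr4a1 and Nr4a2 were again lower in CD41low/CD9low HSCs, by less than among WT libraries, a difference that was not tested. Egr1 was 5.98-fold lower in CD41low/CD9low HSCs (0.167, 0.145 to 0.192), Nr4a1 11.4-fold lower (0.0874, 0.0659 to 0.114) and Nr4a2 5.27-fold lower (0.19, 0.147 to 0.242). Egr3, at 0 counts, was 5.53-fold lower with 3 counts as the limit, and its counting interval reached a ratio of 0.235. Egr2 (0.559, 0.186 to 1.42) and Nr4a3 (1.2, 0.62 to 2.26) had intervals that include 1, and Srf was higher in CD41low/CD9low HSCs (1.34, 1.25 to 1.44). Of the 7 genes that passed the filter 5 were below 0.6, beside 21.1% of 15419 genes, and 0 above 1.5, beside 18.4%. The population comparisons share their libraries with the KO/WT ratios above and are not separate evidence. The CD41low/CD9low HSC tables were counted on another gene annotation than those of HSCs, with 4074 and 1153 genes found in 1 set only, so population, library and counting cannot be told apart. MK markers moved the same way, with a summed 433.6 and 525.0 CPM in the WT and KO CD41low/CD9low libraries, Gp6 at 0 in both and Gp1bb at 0 in WT. Their part in the population differences was not tested.

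**Figure D4:**
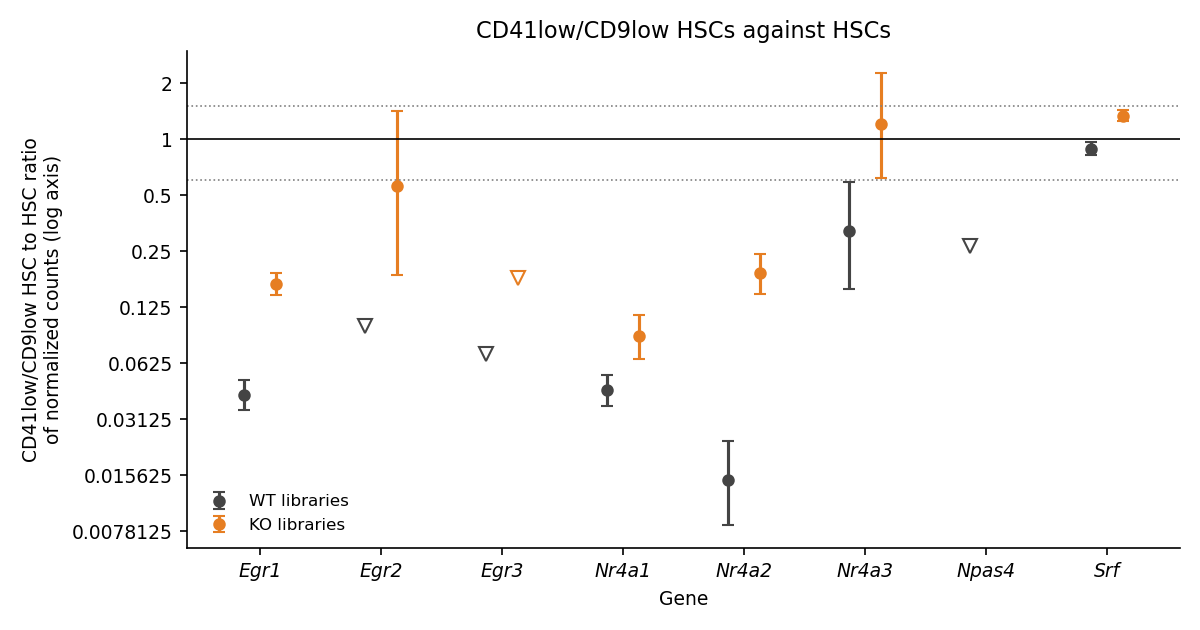
Ratio of normalized counts in CD41low/CD9low HSCs to those in HSCs (log axis) for each gene, with 95% counting intervals. WT libraries are grey and KO libraries orange. Open triangles are set at a limit of 3 counts where the CD41low/CD9low HSC library had 0 counts. The solid line is at 1 and dotted lines are at 1.5 and 0.6; Egr1, Nr4a1 and Nr4a2 lie far below 0.6 in both genotypes, and Srf lies between 0.891 and 1.34.

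The genes with a pattern over the 4 libraries most like that of Egr1 or Nr4a1 were found by the root mean square distance between centred log2 normalized counts, over 13304 genes with at least 50 counts in a library. Among the 5 nearest protein-coding genes to Egr1 were Fosb, an AP-1 subunit (distance 0.305, with 31610, 6877, 536 and 665 counts in WT HSCs, KO HSCs, WT CD41low/CD9low HSCs and KO CD41low/CD9low HSCs), and Zfp36, an mRNA decay factor (0.372, with 12997, 3179, 268 and 316 counts). The others, 1700001P01Rik (0.132), Prr18 (0.394) and Rab39 (0.451), had at most 59 counts in WT HSCs and 0 or 1 in the CD41low/CD9low HSC libraries. Among the 5 nearest protein-coding genes to Nr4a1, the only one with more than 100 counts was Klf4, a zinc finger factor (0.504, with 1988, 409, 41 and 33 counts), behind Rab39 (0.345), Mc1r (0.348), Acsl6 (0.411) and Ccl17 (0.457), all with at most 74 counts in WT HSCs and 0 in both CD41low/CD9low HSC libraries. Of the 8 genes themselves, Nr4a2 ranked 24 and Nr4a1 54 by likeness to Egr1, at distances of 0.578 and 0.727. Egr2 ranked 127 (0.967), Egr3 239 (1.13), Nr4a3 894 (1.45) and Srf 7303 (1.91). These ranks use the levels by which the 8 genes were chosen and are a description only.

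The pathway around the 8 genes was followed through 62 genes in lists of upstream kinases, cofactors, other targets and partners. For these, a genotype effect shared by both populations and a population effect shared by both genotypes were tested by fitting the 4 libraries together (edgeR's quasi-likelihood test), which leaves 1 residual degree of freedom. Of the 55 genes tested, 0 rose and 3 fell with the KO genotype, beside 126 (0.843%) of 14940 genes called in either direction, and 3 were higher and 18 lower in CD41low/CD9low HSCs, beside 3107 (20.8%). With the KO genotype 4 genes were higher and 7 lower at an unadjusted p under 0.05, beside 1501 of 14940 genes in either direction. DESeq2 called 0 higher and 2 lower, beside 99 (0.75%) of 13202 genes. Whether the genotype effect differed between populations was not tested, as such a fit has no residual degrees of freedom. The study pooled the marrow of a genotype before the sort, so both libraries of a genotype may come from the same mice. Both edgeR and DESeq2 treated these libraries as independent, and their p-values may not cover the spread between mice.

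The other early-response targets of SRF were also lower in KO HSCs. Their list was chosen with earlier results of these data known, so its counts are a description and not separate evidence. All 10 that passed the filter were below 1 in KO HSCs, 8 of them below 0.6, beside 10.3% of all genes, with a median log2 ratio of -0.92 against 0.00 over all genes. Fos, the partner of Jun in AP-1, had 67167 and 13042 counts in WT and KO HSCs, against 272 and 328 in the WT and KO CD41low/CD9low libraries, with ratios of 0.24 (0.235 to 0.244) and 0.804 (0.682 to 0.948). Junb, another AP-1 subunit, had ratios of 0.265 and 0.755, and Fosb of 0.269 and 0.827. Btg2, an antiproliferative gene, had 9460 and 4516 counts in WT and KO HSCs, against 209 and 146 in the WT and KO CD41low/CD9low libraries, with ratios of 0.589 (0.569 to 0.611) in HSCs and 0.466 (0.374 to 0.578) in the CD41low/CD9low population. Fos (adjusted p = 0.0316), Junb (0.0315) and Btg2 (0.0117) fell with the KO genotype in edgeR's quasi-likelihood test. Over 4 alternatives the adjusted p ranged from 2.98e-05 to 0.0296 for Btg2, which was called in each, while Fos (up to 0.891) and Junb (up to 0.837) were called only without a filter on low counts. In CD41low/CD9low HSCs the list ran from Btg2 to Ier3, an antiapoptotic gene (1.6, 1.36 to 1.88), with 8 of 9 genes below 1 and a median of -0.31. Fos, Fosb, Junb, Ier2, Mcl1, Dusp1 and Btg2 were lower in CD41low/CD9low HSCs in the same test, with the smallest adjusted p for Btg2 (5.80e-10) and the largest for Ier2 (0.0379). Of these calls, Ier2 was lost under 3 of the 4 alternatives (adjusted p of up to 0.068) and Junb under DESeq2 (0.205).

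Cytoskeletal targets of SRF were closer to a ratio of 1. Of 17 that passed the filter in HSCs, 2 were above 1.5, beside 14.1% of all genes, and 0 below 0.6, beside 10.3%, with a median log2 ratio of -0.20. Tpm4, a tropomyosin, was at 1.76 (1.66 to 1.87) and Vcl, which encodes vinculin of focal adhesions, at 1.67 (1.63 to 1.71), whereas Fhl2 was at 0.617 (0.366 to 1.02). In CD41low/CD9low HSCs Tpm4 was at 1.59, and Fhl2 and Myl9 went from 19 and 12 counts in WT to 0 in KO. For the genotype effect 0 of 17 passed edgeR's quasi-likelihood test, with a smallest adjusted p of 0.0821, and 0 passed DESeq2. In edgeR 1 had an unadjusted p under 0.05, beside 1501 of 14940 genes. Vcl, Tpm4, Fhl1 and Itgb1, which encodes the integrin beta 1 chain, were lower in CD41low/CD9low HSCs, with adjusted p of 1.75e-05 to 0.00334 in the same test.

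Cofactors of SRF were at ratios of 1.03 to 1.46 in KO HSCs, all 5 that passed the filter being above 1. The largest were Mrtfb (1.46, 1.39 to 1.53), Elk1 (1.29) and Elk3 (1.23). They ran in CD41low/CD9low HSCs from Mrtfa (0.873, 0.797 to 0.956) to Elk1 (1.25, 1.03 to 1.52), and 0 of 5 passed the test of either effect by edgeR or DESeq2 or had an unadjusted p under 0.05. Myocd, a cofactor of muscle, had 0 counts in all 4 libraries.

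MAP kinase pathway genes, which act upstream of Elk proteins, had KO/WT ratios of 0.905 to 1.65 in HSCs and a median log2 ratio of 0.02. Braf was at 1.65 (1.59 to 1.72) in HSCs, and Map2k1 at 0.905. Rps6ka3 was at 0.694 and Mapk3 at 1.4 in CD41low/CD9low HSCs. Of these 10 genes 0 passed the test of the genotype effect by edgeR or DESeq2, also at an unadjusted p under 0.05, and Braf and Rps6ka3 were lower in CD41low/CD9low HSCs, with adjusted p of 0.0094 and 0.00018 in edgeR's quasi-likelihood test.

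Among CREB regulators 5 of 8 were above 1 in KO HSCs. Crem, Ep300 and Crebbp, which encode a CREB family member and both histone acetyltransferases that bind CREB, were at 1.58 (1.34 to 1.86), 1.58 (1.53 to 1.63) and 1.54 (1.5 to 1.59), with a median log2 ratio of 0.40 over 8 genes, against 0.00 over all genes, of which 14.1% were above 1.5. Crebbp and Ep300 have summed exon lengths of 13.5 and 14.3 kilobases, and these ratios were not corrected for exon length. In CD41low/CD9low HSCs Crem was at 0.431 on 17 and 11 counts and Crtc2 at 1.46 (1.29 to 1.64). For the genotype effect 0 of 8 passed the test by edgeR or DESeq2, with 3 at an unadjusted p under 0.05, beside 1501 of 14940 genes. Creb1 and Crem were lower in CD41low/CD9low HSCs (adjusted p = 0.0225 and 0.00515, edgeR's quasi-likelihood test).

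Partners of the 8 factors were counted in every library where they are widely expressed. Nab1 and Nab2, corepressors that bind Egr proteins, had ratios of 0.954 and 0.765 in HSCs and of 1.16 and 1.31 in CD41low/CD9low HSCs. Rxra and Rxrb, which encode retinoid receptors that pair with Nr4a1 and Nr4a2, had ratios of 1.49 and 0.807 in HSCs and 1.01 and 0.98 in CD41low/CD9low HSCs. Arnt, the partner of Npas4, was at 1.2 and 0.744. Of these 5 genes 0 passed the test of the genotype effect by edgeR or DESeq2, also at an unadjusted p under 0.05. In CD41low/CD9low HSCs Nab2, Rxra and Rxrb were higher (adjusted p = 0.00954, 0.00685 and 0.012) and Nab1 and Arnt lower (0.0034 and 0.00655) in edgeR's quasi-likelihood test. Rxrg had 5, 0, 0 and 0 counts and Arnt2 had 0 counts in all 4 libraries.

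**Figure D5:**
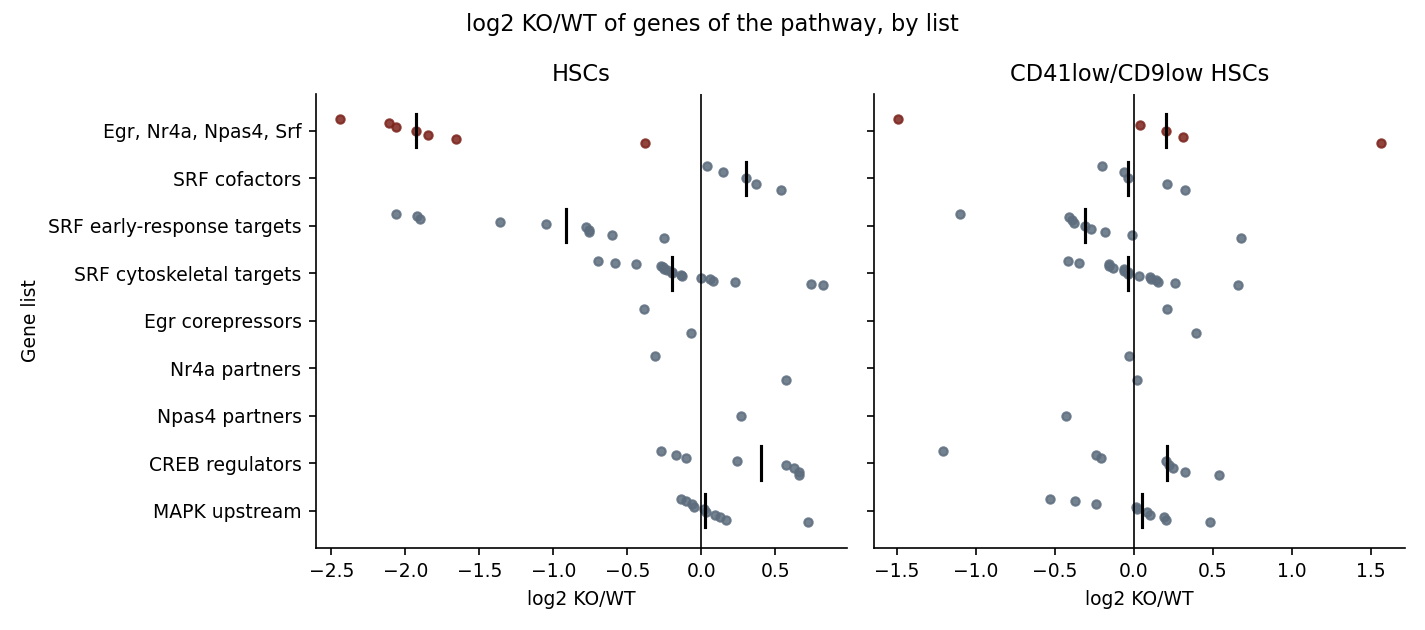
Log2 KO/WT ratio (x axis) of each gene of the 8 genes (red) and of the pathway lists (grey) in HSCs (left) and CD41low/CD9low HSCs (right), where a black bar marks the median of lists with 3 or more genes drawn. Genes at 0 in a library of the pair are not drawn, Npas4 among them; in HSCs the early-response targets lie below 0 with a median of -0.92, and the medians marked for the other pathway lists lie between -0.20 and 0.40.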

How the data were processed

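RNA of 4 sorted HSC populations (WT and KO HSCs, WT and KO CD41low/CD9low HSCs, 1 pooled library each) was sequenced from stranded poly(A) libraries. The authors deposited raw counts per Ensembl gene. The submitters' processing notes name TopHat2 2.0.10, SAMtools, HTSeq, DESeq and mm10, while the version and strand setting of HTSeq and the annotation it used are not given in the sources used here. The closing lines of the tables, which hold 61.1 to 69.5% of all reads listed, name no gene and were left out. Depth is 12732079 to 50781007 gene counts, at which 3 counts are 0.0591 to 0.236 CPM. No fold changes or p-values of the authors were used.

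Counts of each pair of libraries were scaled by DESeq's median-of-ratios factors, the study's method, and ratios were taken for genes with at least 10 counts in a library of the pair, and were called at 1.5 and 0.6. Intervals are exact (Clopper-Pearson, 95%). Shared effects were tested with edgeR 4.0.16 in R 4.3.3 (TMM, quasi-likelihood, population and genotype as terms, Benjamini-Hochberg over 14940 genes with at least 10 counts in 2 libraries, adjusted p under 0.05). On simulated counts of those genes it recovered 92 of 100 genes changed 3-fold with the genotype and 86 of 100 changed 3-fold with the population, with 2 false calls each. The simulation gave every gene the same spread and each change the same size in both populations or genotypes. Changed genes had a mean of at least 50 counts, so these rates may not hold for the data. Alternatives were TMM, total-count and 4-library scaling, 1 added count, other filters and a lower cutoff of 0.667, RLE factors and DESeq2 1.42.0. Values were computed in Python 3.11.15 with numpy 2.4.6, scipy 1.17.1 and pandas 2.3.3. Exon lengths and coordinates come from GENCODE M21 of GRCm38, promoter windows from RefSeq. Cyr61 and Ctgf were matched through RefSeq synonyms.

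The 8 genes, the pathway lists and the marker lists were chosen with earlier results of these data known. Beside the 8 genes, the text names from each list the 3 genes with the largest log2 KO/WT ratio in HSCs, the 2 with the largest in CD41low/CD9low HSCs and those past the 4-library test, the 5 protein-coding genes nearest in pattern to Egr1 and to Nr4a1, with a count of 0 set to 0.5 and at least 50 counts in a library. Some genes that this rule picks are not reported here. Myocd, Mrtfa in CD41low/CD9low HSCs, Rxrg, Arnt2, Gm26904, Mir6976 and the marker genes were named after their values were seen.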

Additional observations from a re-analysis of the deposited data

Results flagged for a closer look

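Nr4a2 and Srf moved in opposite directions with the KO genotype in the 2 populations, and in each case the counting interval lay below 1 in HSCs and above 1 in CD41low/CD9low HSCs. The KO/WT ratio of Nr4a2 was 0.232 (0.215 to 0.251) in HSCs and 2.96 (1.7 to 5.45) in the CD41low/CD9low population, where it rests on 16 and 71 counts. That of Srf was 0.769 (0.728 to 0.813) and 1.14 (1.05 to 1.25). The difference between the populations was not tested in either gene, since each ratio compares 1 library with 1 library. Egr1 (0.317 and 1.24) and Nr4a3 (0.277 and 1.03) also lay on opposite sides of 1, with an interval that includes 1 in CD41low/CD9low HSCs.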

How the results depend on the processing

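No paired analysis was possible because each genotype and population has 1 library and the labels number no replicates. Leaving out a library was not possible either, since a pair then has no ratio and the fit on 4 libraries no residual degrees of freedom. Where both libraries of a pair had counts, no ratio of the 8 genes called at 1.5 or 0.6 changed sides of 1 under the alternatives run. Ratios with a count of 0 in a library, those of Npas4 among them, were not part of this check. Of 115 alternative values, 113 stayed within the counting interval. Both that left it were of Srf under a correction for exon length, chosen after seeing the data, with a KO/WT ratio of 0.831 in HSCs and a population ratio of 1.22 in KO. The length correction is reported for the 8 genes only, so the ratios of the pathway genes are given without it. Scaling moved a ratio by at most 1.07-fold. With 1 normalized count added, the median log2 population ratio of the 8 genes in WT was -4.53 in place of -3.58, where genes at 0 had been set at their limit. With at least 50 counts required, 2223 in place of 3887 genes passed the KO/WT cutoffs in HSCs and 1684 in place of 3786 in CD41low/CD9low HSCs. The population cutoffs were passed by 3762 in place of 6068 genes (WT) and 4036 in place of 6091 (KO). That filter leaves out genes with few counts, and what part of the drop comes from fewer genes tested was not tested. Genes with a shared genotype effect numbered 126, and 69 with at least 50 counts required in 2 libraries, 420 with no filter, 96 with RLE factors and 99 in DESeq2. For the shared population effect the 4 alternatives called 2425 to 3601 genes, against 3107. Of the pathway genes called, 1 of 3 (genotype) and 19 of 21 (population) were called under all 4 alternatives and 0 changed direction. Depth limits Egr2, Egr3 and Npas4 in CD41low/CD9low HSCs, where 3 counts, taken as the limit for a count of 0, are up to 0.236 CPM.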
